A study of Homo sapiens with 54 samples.

Results

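Macrophages of 3D culture were compared at day 16 between libraries whose label carries FBS (fetal bovine serum) and libraries of the same day whose label does not, 3 of each. These are 6 of the 54 samples of the series. The members were the deposited columns of those 6 libraries and the genes with a mean of at least 1 TPM (a transcript level scaled for gene length and for the total of each library) over them, 13341 of the 58735 genes in the table. The study differentiated macrophages from H1, a human embryonic stem cell line, in a porous 3D niche and set them beside macrophages from flat 2D culture. Of its libraries 32 are bulk RNA; the 11 of chromatin immunoprecipitation, 8 of accessibility and 3 of single cells are not used here. All 6 libraries share the line H1, the cell type label macrophage, the 3D protocol and day 16. RNA was extracted with TRIzol, selected for polyA and prepared by SMART-seq2, a full-length protocol for small amounts of RNA. The labels give no dose, start or length of the FBS exposure and do not say what the medium of the other group held, so that group is called no FBS here only for its label. They do not say either that replicates came from separate cultures, so p-values measure only the spread between these samples, which may be technical.

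Serum brings cells lipoproteins loaded with cholesterol and fatty acids, hormones, metal ions and growth factors such as those of the bone morphogenetic protein (BMP) and TGF-beta families. Cells sense sterol through the SREBP factors, which switch on cholesterol synthesis and lipoprotein uptake when sterol is scarce, and through the LXR receptors, which switch on cholesterol export when oxidised sterols build up. Macrophages take up lipoproteins by receptors and scavenging, and their programme ranges from inflammatory states that make IL-1 and IL-6 to the tissue-resident state with its C1q, folate receptor beta and mannose receptor.

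Read totals, not given in the sources used here, leave the depth unknown. Between 12317 and 12451 genes reached 1 TPM in the no-FBS libraries and 12580 to 12944 in the FBS libraries. On the log2(TPM + 1) scale the no-FBS libraries correlated at 0.935 in each pair, the FBS libraries at 0.884 to 0.891, and libraries of different groups at 0.812 to 0.845. Genes known only by clone names, 3 in number, took 12.5 to 20.5% of the TPM without FBS and 18 to 27.4% with FBS, which leaves less for all other genes. With those genes left out and the rest rescaled, the median change over all genes was 0.0881 in place of 0.0086. All 17 macrophage markers were tested, and their summed level was 21722 to 24447 TPM without FBS and 18490.3 to 22790 TPM with FBS. Markers of granulocytes (12 listed, 9 at 0 in all 6 libraries, highest sum 4.36 TPM) and pluripotent cells (8 listed, highest sum 6.02 TPM) did not reach the filter. Of 16 stromal markers 10 were at 0 in all 6 libraries, and of 14 hepatic or yolk sac endoderm markers 12 were, with SERPINA1, which macrophages also express, as the only one tested. SERPINA1 measured 46.4, 50.8 and 55.3 TPM without FBS and 8.81, 9.42 and 5.51 TPM with FBS and fell (-2.57). Markers of mast cells, basophils and eosinophils (10 listed, 3 tested) set 1 library apart: they summed to 63.7 TPM in no-FBS replicate 3, 0 and 0.52 TPM in the other no-FBS libraries and 5.55 to 16.8 TPM with FBS. CPA3, HDC and CLC made up most of that sum, with 0, 0 and 14.7 TPM, 0, 0 and 20.9 TPM and 0, 0 and 22.8 TPM without FBS, and none was called. Endothelial markers (12 listed, 3 tested, 6 at 0 in all 6 libraries) summed to 142 to 209.9 TPM without and 100.9 to 123 TPM with FBS. Of these EGFL7 fell (-0.80) and PECAM1, also a gene of macrophages and platelets, rose (0.79). The call of EGFL7 was lost with any of no-FBS replicate 1 or 3 or FBS replicate 1 left out, and that of PECAM1 whichever library was left out. The part of these markers in the changes below was not tested.

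Of the 13341 genes tested, 1362 (10.2%) rose and 1602 (12.0%) fell with FBS by limma at an adjusted p under 0.05, the rule behind every use of these verbs. Without no-FBS replicate 1 the calls were 950 and 969, and without no-FBS replicate 3 they were 913 and 887. With the 3 clone-named genes left out and the rest rescaled, 1562 genes rose and 1494 fell, and with protein-coding genes only 1485 rose and 1378 fell, so which direction held more calls turned with the scaling. A change is the difference of mean log2(TPM + 1), FBS minus no FBS, and understates the fold of low genes; single values in parentheses after gene names are such log2 changes. Called changes had a median of 1.51 among genes that rose and -1.31 among those that fell, beside 0.0086 over all genes tested. A gene not called is not shown to be unchanged. On simulated data 43% of 100 genes changed by 2 log2 units were recovered. Far fewer genes were changed there than were called here, which makes the adjusted threshold stricter, so that share does not carry over. Differences of at least 2 log2 units were seen here in 369 genes that rose, 274 that fell and 78 not called. At least 4 log2 units separated the groups for 22 genes that rose and 17 that fell. The 3 FBS libraries lay entirely above or below the 3 others in 5274 genes, 39.5% of those tested, and they do so for each called gene named below. Ranks by size are among called genes whose libraries did not overlap and whose higher group reached a mean of 5 TPM. Calls were denser among abundant genes: of 977 genes with a mean over 100 TPM, 20.5% rose and 36.5% fell, against 4.29 and 2.88% of the 4751 genes at 1 to 5 TPM. The counts of the lists below were not set against genes of like level. In bulk RNA, fewer cells of a type and less RNA per cell cannot be told apart, which holds for every gene below.

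**Figure D1:**
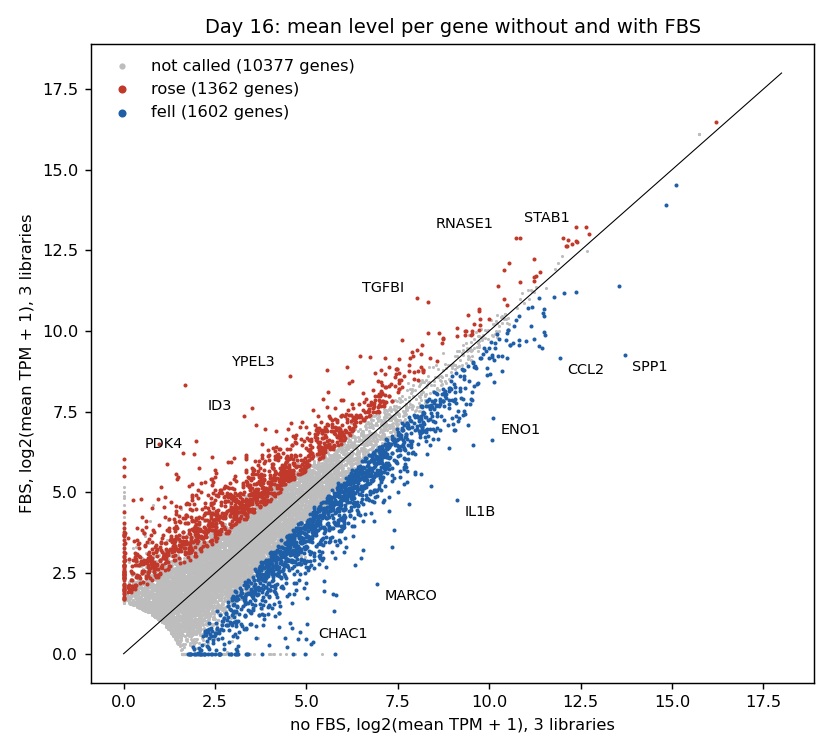
Mean level of each of the 13341 genes at day 16, without FBS on the x axis and with FBS on the y axis, both as log2(mean TPM + 1) over 3 libraries. The 1362 genes in red rose and the 1602 in blue fell, and the line marks equal levels; SPP1, IL1B and CCL2 lie far below it and TGFBI, ID3 and PDK4 above it.

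Genes of cholesterol synthesis were lower together with FBS. Of 20 enzymes listed, all of them tested, 15 fell, 0 rose and 5 were not called, with a median change of -1.54. MVK, the mevalonate kinase near the start of the pathway, stood at 13.6, 18.6 and 22.3 TPM without FBS and 1.44, 0.11 and 2.71 TPM with FBS. The groups were thus far apart, and MVK fell by the largest amount of the list (log2 change -3.13, SE 0.47, adjusted p = 0.00198). PMVK, the next kinase, fell from 64.1 ± 10.1 to 16.1 ± 2.66 TPM (SD, n = 3 per group, log2 change -1.93, SE 0.23, adjusted p = 0.000589). CYP51A1 and EBP, which work on the sterol rings late in the pathway, fell by comparable amounts (log2 changes -2.04 and -2.08). HMGCS1, which feeds the pathway, had 13.9, 8.12 and 12.2 TPM without FBS and 3.51, 9.32 and 2.0 TPM with FBS, with overlapping groups and a difference short of the threshold (log2 change -1.23, adjusted p = 0.0916). MYLIP, a ubiquitin ligase that limits lipoprotein uptake, rose from 1.91 ± 0.606 to 16 ± 1.58 TPM (SD, n = 3 per group, log2 change 2.56, SE 0.32, adjusted p = 0.000719). Of the 13 tested genes of LDL uptake and SREBP control, 1 rose, MYLIP, and 3 fell. MYLIP is also counted among the LXR targets below.

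Targets of the LXR receptors showed the opposite picture. Among 11 tested genes 6 rose and 0 fell (median 1.02). ABCA1 (ENSG00000165029, chromosome 9, 104781006 to 104928155 in RefSeq), the pump that loads cholesterol onto apolipoprotein A-I, had 3.26, 2.47 and 3.05 TPM without FBS and 24.5, 28.7 and 34.1 TPM with FBS. The groups were far apart (log2 change 2.93, SE 0.28, adjusted p = 0.000202). ABCG1, its partner for export to HDL, measured 1.25, 0.34 and 1.19 TPM without FBS and 13, 27.9 and 39.2 TPM with FBS (log2 change 3.76, SE 0.45, adjusted p = 0.000606). SMPDL3A, a secreted phosphodiesterase, rose by 3.06, and NR1H3, which encodes LXR-alpha itself, by 2.35 on the log2 scale. APOE and APOC1, the apolipoproteins macrophages secrete, were not called (0.17 and 0.36).

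Fatty acid genes divided. Of 11 tested, 6 fell and 2 rose. The desaturases fell, with FADS1 going from 45.8 ± 10.6 to 5.47 ± 1.97 TPM (SD, n = 3 per group, log2 change -2.87, SE 0.31, adjusted p = 0.000403), SCD from 18.1 ± 4.68 to 2.05 ± 1.33 TPM (log2 change -2.73, SE 0.43, adjusted p = 0.00239) and FADS2 falling too (-2.22). ME1, the malic enzyme, and ACSS2, which activates acetate, rose (1.26 and 0.94). PDK4, a kinase that inhibits the pyruvate dehydrogenase complex when fat is burned, had the fourth largest increase. It measured 1.81, 0.63 and 1.34 TPM without FBS and 54.2, 49.4 and 68.6 TPM with FBS, with no overlap (log2 change 4.71, SE 0.31, adjusted p = 3.37e-05). G0S2, which restrains the lipase ATGL, had the largest decrease: 31, 25.4 and 35 TPM without FBS, while it was listed at 0 in all 3 FBS libraries (adjusted p = 3.38e-05). DGAT1, which completes triglyceride, rose (1.32), and PLIN3, a lipid droplet coat protein, fell (-1.27). PLIN2, the main droplet coat protein of macrophages, was 62.2 ± 15 TPM without and 93.4 ± 24.7 TPM with FBS (SD, n = 3 per group) and not called (adjusted p = 0.135). Over the list of lipid droplets and lipid uptake 2 of 15 rose and 5 fell (2 without no-FBS replicate 3).

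Genes known from lipid-laden macrophages fell more often than they rose. Of 15 tested, 6 fell and 1 rose (median -0.77). SPP1, the secreted phosphoprotein osteopontin, was among the most abundant mRNAs without FBS at 12510.1, 12716 and 15310.3 TPM. With FBS it measured 561, 367 and 906 TPM, a wide gap between the groups (log2 change -4.55, SE 0.26, adjusted p = 1.96e-05). CHI3L1, a chitinase-like glycoprotein, fell from 337 ± 45.3 to 35.6 ± 28 TPM (SD, n = 3 per group, log2 change -3.45, SE 0.42, adjusted p = 0.000695). TREM2, the lipid-sensing receptor, fell (-1.75), and CTSB and CTSL, lysosomal proteases, moved apart at -1.03 and 1.03. CD36 and MSR1, which take up modified lipoprotein, were not called (-0.04 and -0.23).

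**Figure D2:**
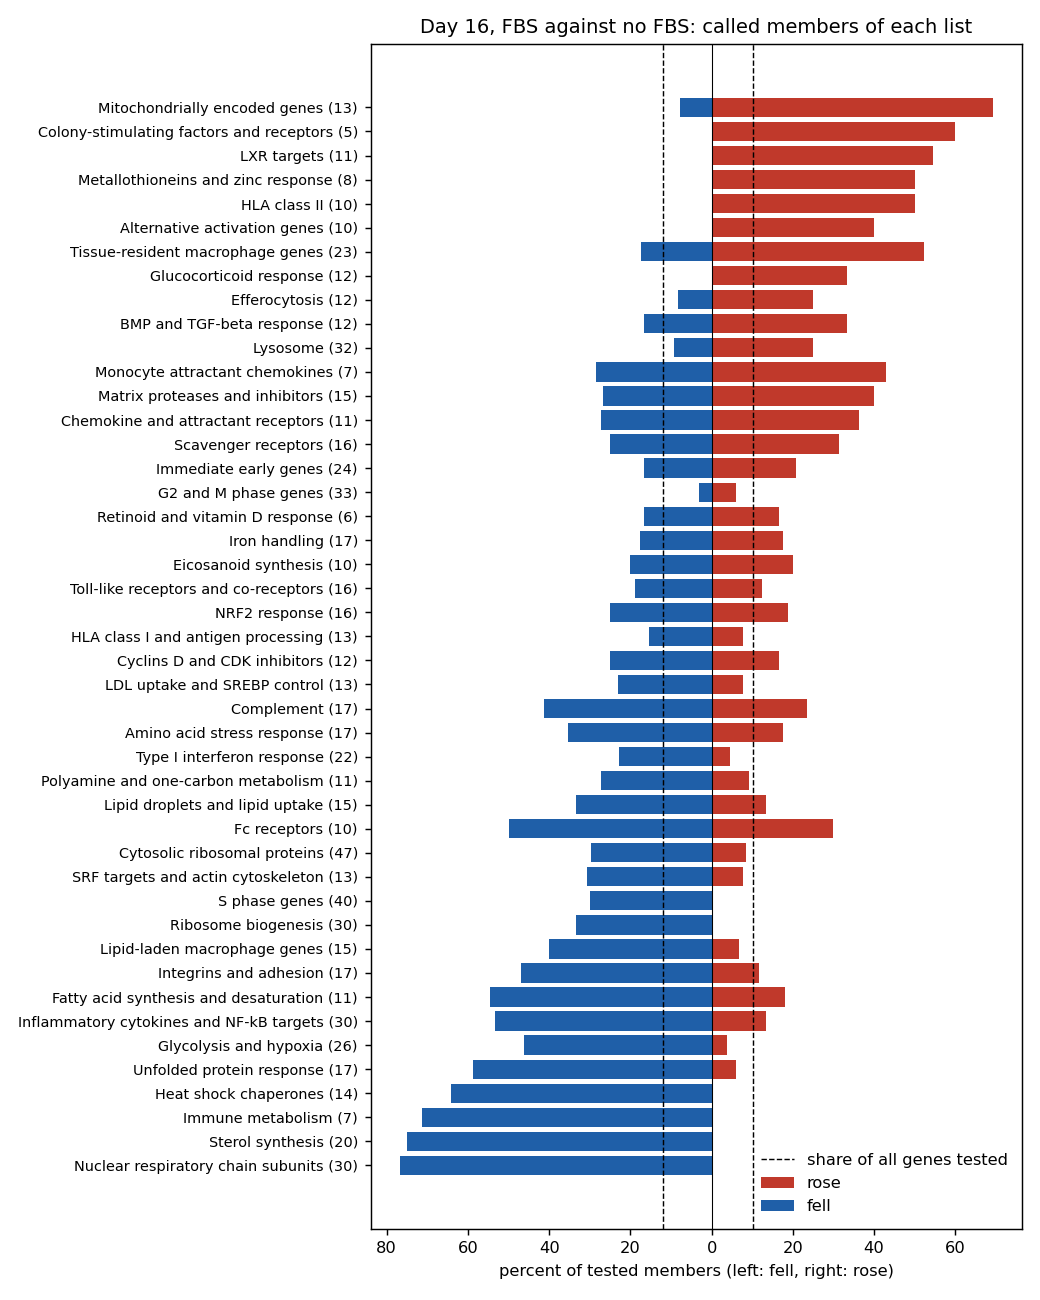
Share of tested members of each of 45 pathway lists that rose (red, to the right) or fell (blue, to the left) at day 16, in percent, with the number tested in parentheses; dashed lines mark the 10.2% that rose and the 12.0% that fell among all genes tested. Nuclear respiratory chain subunits and sterol synthesis lie at the bottom with the most members that fell, and mitochondrially encoded genes at the top. The dashed lines are not matched for level, and calls were denser among abundant genes.

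Metallothioneins, small cysteine-rich proteins that bind zinc and copper, were higher with FBS in part of the family. Their promoters are shown because metal response elements, the sites of the zinc sensor MTF1, are the usual route of control of the family. The sequences are the 250 bases before the RefSeq start (build GRCh38.p14), 5′ to 3′ on the gene's strand, in lower case with capitals for each match of TGCACNC or TGCGCNC on either strand: MT2A at chr16:56608334-56608583, plus strand, MT1X at chr16:56682220-56682469, plus strand and MT1H at chr16:56669564-56669813, plus strand.
MT2A: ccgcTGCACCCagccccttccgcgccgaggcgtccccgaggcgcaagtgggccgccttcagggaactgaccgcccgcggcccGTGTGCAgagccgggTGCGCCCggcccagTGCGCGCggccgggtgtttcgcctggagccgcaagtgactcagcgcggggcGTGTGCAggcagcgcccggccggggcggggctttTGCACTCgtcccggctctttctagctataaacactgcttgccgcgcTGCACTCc
MT1X: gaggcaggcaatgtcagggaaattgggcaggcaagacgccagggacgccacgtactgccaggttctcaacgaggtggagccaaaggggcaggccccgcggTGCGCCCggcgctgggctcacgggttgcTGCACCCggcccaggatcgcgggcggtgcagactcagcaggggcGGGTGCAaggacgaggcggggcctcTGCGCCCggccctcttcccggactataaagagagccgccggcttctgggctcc
MT1H: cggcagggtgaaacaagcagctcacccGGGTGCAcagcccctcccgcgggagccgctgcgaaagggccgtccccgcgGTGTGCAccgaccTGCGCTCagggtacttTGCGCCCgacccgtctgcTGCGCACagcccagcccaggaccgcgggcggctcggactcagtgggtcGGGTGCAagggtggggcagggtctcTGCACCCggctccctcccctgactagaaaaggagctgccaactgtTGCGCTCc
MT2A holds 7 matches, MT1X 4 and MT1H 8. At least 1 match stands in 24.8% of the 35116 promoters in the reference table and in 39.6, 41.1 and 39.4% of the genes that rose, fell and were not called with a promoter there. A match describes the letters and is no measured site. MT1X measured 42.2, 44.8 and 52.3 TPM without FBS and 157, 289 and 157 TPM with FBS, and the groups did not overlap (log2 change 2.03, SE 0.25, adjusted p = 0.000704). MT2A had 30.6, 58.1 and 40.3 TPM without FBS and 87.6, 152 and 124 TPM with FBS (log2 change 1.49, SE 0.28, adjusted p = 0.00541), and its call was lost with the spread taken from 18 libraries. MT1G was listed at 0 in the 3 no-FBS libraries and at 47.7, 53.6 and 33.4 TPM with FBS (adjusted p = 1.99e-05). MT1E had 0, 2.12 and 0 TPM without FBS and 24, 27.7 and 13.9 TPM with FBS (log2 change 3.91, SE 0.51, adjusted p = 0.001). MT1H was listed at 0 in 5 libraries and at 24.8 TPM in FBS replicate 3, and it was not called (adjusted p = 0.376). In all, 4 of 8 tested genes of the list rose and 0 fell. MTF1 itself was not called (-1.26), nor was the zinc exporter SLC30A1 (-0.28). The MT1 genes are near-identical copies, and the counting of reads that fit several of them is unstated, so levels of single copies are uncertain.

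Metallothioneins also respond to glucocorticoid. Of 12 genes of that list, 4 rose and 0 fell, and MT1X and MT2A are 2 of them. TSC22D3 (GILZ), an anti-inflammatory leucine zipper protein, rose from 21.4 ± 4.28 to 69.6 ± 7.57 TPM (SD, n = 3 per group, log2 change 1.67, SE 0.22, adjusted p = 0.000997), and PER1, a clock gene, rose by 1.57. FKBP5, the co-chaperone most used as a readout of the receptor, measured 11.6, 9.29 and 12.8 TPM without FBS and 4.95, 4.73 and 6.96 TPM with FBS. The FBS libraries lay below the others, but the difference was not called (log2 change -0.91, SE 0.30, adjusted p = 0.0586).

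Among BMP and TGF-beta response genes, 4 of 12 rose and 2 fell. ID3 (ENSG00000117318, chromosome 1, 23557926 to 23559501 in RefSeq), an inhibitor of basic helix-loop-helix factors and a direct BMP target, measured 10.6, 5.1 and 10.7 TPM without FBS and 128, 187 and 174 TPM with FBS. The groups were far apart (log2 change 4.10, SE 0.30, adjusted p = 5.11e-05). ID1, its relative, was low in every library, with 0.43, 0 and 1.24 TPM without FBS and 5.47, 11.3 and 2.54 TPM with FBS (log2 change 2.15, SE 0.57, adjusted p = 0.0256), and its call was lost with no filter on low values and any of no-FBS replicate 1 or 2 or FBS replicate 1 or 2 left out. TGFBI, a secreted matrix protein, rose from 317 ± 27.5 to 1921 ± 105 TPM (SD, n = 3 per group, log2 change 2.60, SE 0.11, adjusted p = 6.16e-06). THBS1, which activates latent TGF-beta and is also a monocyte gene, rose from 68.4 ± 5.7 to 468 ± 38.4 TPM (log2 change 2.76, SE 0.14, adjusted p = 1.31e-05). The feedback inhibitors SMAD6 and SMAD7 were not called (0.38 and -0.37). The 2 members that fell were ID2, a relative of ID1 (-0.70), and TGFBR1, the type I receptor (-1.08), a count of 0 without no-FBS replicate 1 or 3 and 1 without FBS replicate 1, 2 or 3.

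**Figure D3:**
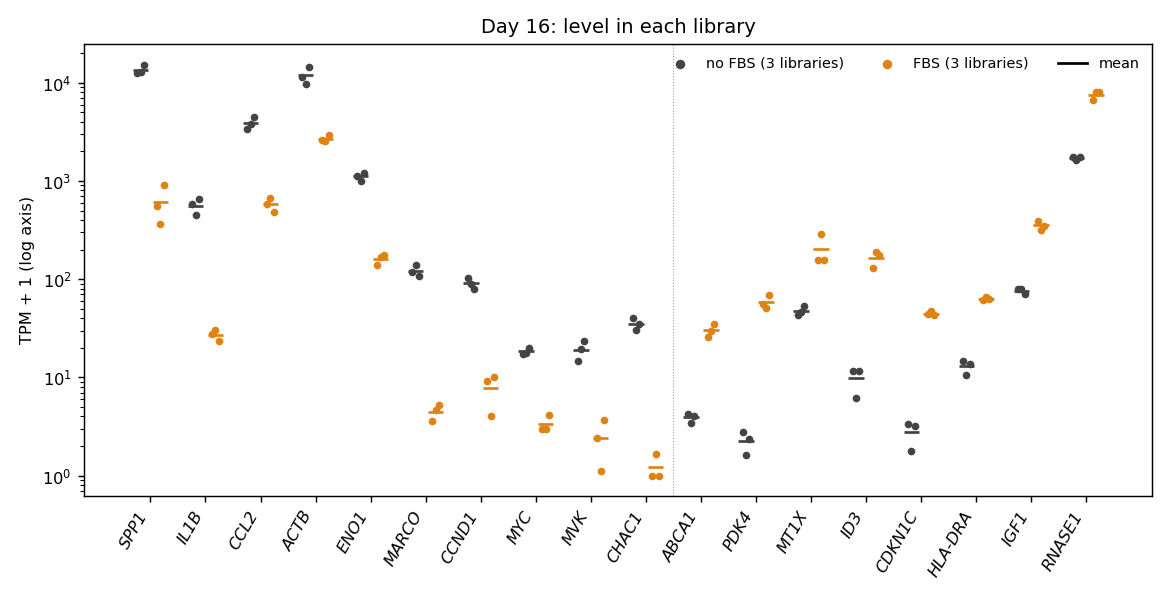
Level of 18 genes in each of the 6 libraries at day 16, as TPM + 1 on a log axis, with grey points for no FBS, orange points for FBS and a bar at the mean of the 3 libraries. Genes left of the dotted line fell and genes right of it rose; the groups do not overlap for any of the 18.

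Inflammatory mediators were mostly lower with FBS. Of 30 tested cytokines and NF-kB targets, 16 fell, 4 rose with 10 uncalled (median -1.01). IL1B (ENSG00000125538, chromosome 2, 112829751 to 112836779 in RefSeq), the inflammasome-processed cytokine, had 577, 450.2 and 650.4 TPM without FBS and 27, 29 and 22.6 TPM with FBS (log2 change -4.36, SE 0.18, adjusted p = 6.16e-06). IL1A, its membrane-bound relative, fell from 20.5 ± 6.63 to 0.4 ± 0.123 TPM (SD, n = 3 per group, log2 change -3.90, SE 0.36, adjusted p = 0.000189). OSM, a cytokine of the IL-6 family, fell from 54.4 ± 9.83 to 6.76 ± 1.31 TPM (log2 change -2.83, SE 0.25, adjusted p = 0.000162), and SOD2, the mitochondrial superoxide dismutase induced by NF-kB, fell too (-2.11). IL6, the cytokine of fever and acute phase, measured 42.5, 27.8 and 23.9 TPM without FBS and 0.65, 6.3 and 0 TPM with FBS (log2 change -3.78, SE 0.65, adjusted p = 0.00365). TNF measured 63.1, 62.3 and 89 TPM without FBS and 94.8, 70.9 and 56.9 TPM with FBS, and the groups overlapped (adjusted p = 0.917). Not all members went down. TNFAIP2, a further NF-kB target, rose from 141 ± 5.21 to 576 ± 19 TPM (log2 change 2.02, SE 0.12, adjusted p = 1.89e-05), and the neutrophil attractants CXCL2 and CXCL3 rose by 2.01 and 2.31, whereas their relatives CXCL1 and CXCL8 fell (-0.97 and -1.33). IL18, a further inflammasome cytokine, rose (1.95), a call lost with no filter on low values and any of no-FBS replicate 2 or 3 or FBS replicate 1 or 2 left out.

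Chemokines for monocytes and eosinophils also divided. CCL2, the main monocyte attractant, measured 3416, 3761 and 4503 TPM without FBS and 575, 667 and 481 TPM with FBS and fell (log2 change -2.76, SE 0.14, adjusted p = 1.31e-05). CCL24, an eosinophil attractant of alternatively activated macrophages, measured 0, 1.59 and 0 TPM without FBS and 8.6, 16.8 and 17 TPM with FBS and rose (log2 change 3.40, SE 0.50, adjusted p = 0.00174). CCL13 rose too (0.98). The list had 3 increases and 2 decreases (1 without no-FBS replicate 2 or 3 or FBS replicate 1 or 2) among 7 tested genes. Alternative activation genes had 4 increases and 0 decreases among 10: CCL24, CCL13, MRC1 and PDCD1LG2 (PD-L2), the last lost with any of no-FBS replicate 3 or FBS replicate 3 left out. Of 22 type I interferon genes 1 rose and 5 fell (2 without no-FBS replicate 1 or 3 and 3 without FBS replicate 1). IFI6, an interferon-induced mitochondrial protein, fell (-1.41) and ISG20, an RNA exonuclease, rose (2.87).

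Receptors for attractants changed in both directions. CX3CR1, the fractalkine receptor of resident macrophages and patrolling monocytes, had 20.1, 25.6 and 36.9 TPM without FBS and 1.14, 0.3 and 0.35 TPM with FBS. It was near 0 in the FBS libraries (log2 change -4.15, SE 0.37, adjusted p = 0.000165). CXCR4, a homing receptor, measured 2.06, 0 and 0.22 TPM without FBS and 7.31, 21.6 and 10.6 TPM with FBS and rose (log2 change 3.06, SE 0.55, adjusted p = 0.0045), as did GPR183, an oxysterol receptor (1.60), and FPR3, a formyl peptide receptor (1.72). GPR84, a receptor of medium-chain fatty acids, fell from 162 ± 33 to 8.94 ± 5.03 TPM (SD, n = 3 per group, log2 change -4.19, SE 0.41, adjusted p = 0.000243). Of the list, 4 of 11 rose and 3 fell (1 without no-FBS replicate 1 or 3). Receptors of colony-stimulating factors, on which macrophages depend, had 3 increases among 5 (1 without no-FBS replicate 1 or 2 or FBS replicate 2). CSF2RA, a chain of the GM-CSF receptor, rose (1.24). CSF1R, the M-CSF receptor, measured 289, 278 and 306 TPM without FBS and 362, 495 and 485 TPM with FBS and rose (log2 change 0.61, SE 0.15, adjusted p = 0.017), a call lost with any of no-FBS replicate 1 or 2 or FBS replicate 2 or 3 left out.

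Antigen presentation genes of HLA class II were higher with FBS. Of 10 tested, 5 rose and 0 fell (median 1.21). CIITA, the master activator of the class, was listed at 0, 0 and 0.08 TPM without FBS and 5.9, 7.45 and 16.1 TPM with FBS (log2 change 3.28, SE 0.47, adjusted p = 0.00164). HLA-DRA, its classical target, had 13.8, 9.52 and 12.7 TPM without FBS and 60.3, 64.6 and 62.5 TPM with FBS, without overlap (log2 change 2.30, SE 0.22, adjusted p = 0.000212). HLA-DRB1, HLA-DMA and HLA-DMB rose by 2.23, 1.51 and 1.76, while CD74, the invariant chain and by far the most abundant of the list at 427 ± 22.5 TPM without and 636 ± 181 TPM with FBS (SD, n = 3 per group), was not called (adjusted p = 0.0798). HLA-DR copies are polymorphic and near-identical, and their split of reads is uncertain. Of 4 dendritic cell markers tested 3 fell and 0 rose. All 13 listed dendritic cell markers together summed to 172 to 283 TPM without and 71.1 to 100.2 TPM with FBS. CD1C fell from 11.2 ± 3.72 to 0.41 ± 0.71 TPM (log2 change -3.18, SE 0.47, adjusted p = 0.00184) and FSCN1, an actin bundler, fell too (-1.83), and 6 of the 13 listed markers were at 0 in all 6 libraries. HLA class I and antigen processing had 1 increase and 2 decreases among 13. The increases were 3 without FBS replicate 1, after median-ratio scaling, without the clone-named genes or with protein-coding genes only, and the decreases were 1 whichever library was left out.

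Genes of tissue-resident macrophages contributed more increases than decreases, 12 and 4 of 23 tested (median 0.72). RNASE1, a secreted ribonuclease, measured 1735, 1642 and 1762 TPM without FBS and 6612, 8097 and 7964 TPM with FBS (log2 change 2.14, SE 0.09, adjusted p = 6.16e-06). STAB1, the scavenger receptor stabilin-1, rose from 1837 ± 251 to 7534 ± 213 TPM (SD, n = 3 per group, log2 change 2.04, SE 0.10, adjusted p = 1.31e-05). IGF1, a growth factor that macrophages supply to tissue, had 79, 78.3 and 69 TPM without FBS and 389.5, 317 and 350.4 TPM with FBS (log2 change 2.21, SE 0.15, adjusted p = 3.39e-05). F13A1, the transglutaminase factor XIII, rose by 1.42, and MAF, a transcription factor of resident macrophages, by 1.25. SELENOP, the selenium carrier, rose from 194 ± 37.8 to 849 ± 139 TPM (log2 change 2.13, SE 0.18, adjusted p = 0.00012). The largest increase belonged to CCDC152, at 2.56, 1.32 and 2.76 TPM without FBS and 382, 176 and 405 TPM with FBS. This gene overlaps SELENOP, and since the strand of counting is not stated, reads of the pair cannot be told apart. LYVE1, a hyaluronan receptor of perivascular macrophages, fell from 130.2 ± 16.9 to 47.2 ± 13.2 TPM (log2 change -1.47, SE 0.22, adjusted p = 0.00198), and C1QB and C1QC, subunits of the complement starter C1q, fell (-1.02 and -0.93), whereas C1QA was not called (0.20).

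Standard macrophage markers did not share a direction. CD14, the co-receptor of endotoxin, measured 1324, 1353 and 1588 TPM without FBS and 712, 918 and 918 TPM with FBS and fell (log2 change -0.75, SE 0.13, adjusted p = 0.00363). CD68, a lysosomal glycoprotein, measured 1228, 1048 and 1376 TPM without FBS and 474, 691 and 630.5 TPM with FBS and fell (log2 change -1.03, SE 0.16, adjusted p = 0.00218). MRC1, the mannose receptor, had 80.0, 65.7 and 79.6 TPM without FBS and 124, 123 and 125 TPM with FBS and rose (log2 change 0.72, SE 0.16, adjusted p = 0.0107). CD163, the haemoglobin scavenger receptor, measured 337, 445 and 285 TPM without FBS and 373, 482 and 557 TPM with FBS and was not called (adjusted p = 0.172), nor was SPI1, which encodes PU.1 (-0.08). Of the 17 markers 6 fell and 5 rose (2 without no-FBS replicate 1 and 3 without no-FBS replicate 2 or FBS replicate 2 or 3). The macrophage markers that rose were 8 after median-ratio scaling, quantile normalization or rescaling without the clone-named genes, and 9 with protein-coding genes only. S100A8 and S100A9, calprotectin chains high in monocytes, were not called (-0.36 and -0.19), and FCN1, another monocyte gene, fell (-2.87), a call lost with no-FBS replicate 1 left out. Monocyte markers summed to 2605 to 2894 TPM without and 2175 to 2626 TPM with FBS.

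Scavenger receptors changed in both directions, with 5 of 16 higher and 4 lower. MARCO, a receptor for bacteria and particles, had 117, 140.0 and 106 TPM without FBS and 2.64, 3.61 and 4.19 TPM with FBS (log2 change -4.77, SE 0.24, adjusted p = 1.31e-05). CD163L1, a relative of CD163, moved from 46.3 ± 12.6 to 439 ± 36.4 TPM (SD, n = 3 per group, log2 change 3.25, SE 0.20, adjusted p = 2.27e-05). OLR1, a receptor of oxidised LDL, fell (-2.32). Among Fc receptors and their kinases 3 of 10 rose and 5 fell: FCGRT, the neonatal receptor that recycles IgG and albumin, rose from 1218 ± 60.9 to 2708 ± 156 TPM (log2 change 1.15, SE 0.09, adjusted p = 6.74e-05), and FCGR1A, the high-affinity IgG receptor, fell from 263 ± 4.78 to 88.9 ± 18.6 TPM (log2 change -1.57, SE 0.17, adjusted p = 0.000428). Complement had 4 increases (2 without no-FBS replicate 1 or 2) and 7 decreases among 17, among them a fall of C3 (-1.01) and a rise of factor B, CFB (1.76). Efferocytosis genes had 3 increases and 1 decrease (0 without no-FBS replicate 2 or 3 or FBS replicate 1 or 3) among 12, with GAS6, the ligand of the TAM receptors, among the increases (1.13) and the receptors MERTK and AXL uncalled (-0.31 and -0.16). Toll-like receptors and adaptors had 2 increases (1 without no-FBS replicate 1 or 3 or FBS replicate 1) and 3 decreases among 16, and the adaptor MYD88 fell (-1.43).

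Adhesion and actin genes fell more often than they rose. ITGB2, the shared beta-2 chain of leukocyte integrins, fell from 1118 ± 52.5 to 339 ± 24.7 TPM (SD, n = 3 per group, log2 change -1.72, SE 0.11, adjusted p = 2.34e-05), and so did its partners ITGAM and ITGAX (-1.52 and -1.22). Of 17 integrin and adhesion genes 2 rose (1 without no-FBS replicate 1 or FBS replicate 3) and 8 fell (5 without no-FBS replicate 3 or FBS replicate 1 or 3). ACTB, cytoplasmic beta-actin and a common reference gene, measured 11539, 9697 and 14524 TPM without FBS and 2589.5, 2576 and 2935 TPM with FBS. The groups did not come near each other (log2 change -2.12, SE 0.13, adjusted p = 2.5e-05). ACTG1 and TPM4, gamma-actin and a tropomyosin, fell (-1.09 and -1.55). SRF and actin genes had 1 increase and 4 decreases among 13. SRF itself stood at 6.03 ± 0.936 TPM without and 6.03 ± 0.306 TPM with FBS (SD, n = 3 per group). Matrix proteases and inhibitors had 6 increases and 4 decreases among 15. MMP9, a gelatinase, fell from 80.2 ± 1.48 to 5.73 ± 3.88 TPM (log2 change -3.74, SE 0.37, adjusted p = 0.00024), while the inhibitor TIMP1 and the plasminogen activator PLAU rose by 1.09 and 2.50 and the receptor of the latter, PLAUR, fell (-1.52).

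Growth control genes moved, but not in a single direction. MYC, a driver of growth and ribosome production, measured 16.3, 16.7 and 19 TPM without FBS and 2.01, 2.01 and 3.12 TPM with FBS, with no overlap (log2 change -2.45, SE 0.30, adjusted p = 0.000709). CCND1, cyclin D1, measured 102, 89.2 and 77.6 TPM without FBS and 8.17, 3.05 and 9.01 TPM with FBS (log2 change -3.65, SE 0.35, adjusted p = 0.000212), and its kinase CDK4 fell from 98.6 ± 21.7 to 29.1 ± 4.22 TPM (SD, n = 3 per group, log2 change -1.71, SE 0.22, adjusted p = 0.00087). CDKN1C, the CDK inhibitor p57, measured 2.35, 0.8 and 2.21 TPM without FBS and 42.9, 46.1 and 41.9 TPM with FBS (log2 change 4.05, SE 0.32, adjusted p = 8.32e-05). Of 40 tested S phase genes, 12 fell and 0 rose (median -0.86), a count of 3 without no-FBS replicate 3, 4 without no-FBS replicate 2 and 5 without no-FBS replicate 1 or FBS replicate 2. It was 7 with a pseudocount of 0.1 or a minimum mean of 5 TPM, and 5 with no filter on low values. GINS2, a subunit of the replicative helicase, fell from 7.7 ± 1.08 to 0.177 ± 0.306 TPM (log2 change -2.91, SE 0.42, adjusted p = 0.00171), and UHRF1, which maintains DNA methylation, fell too (-2.23). Of 33 G2 and M phase genes 2 rose and 1 fell, with a median of 0.50. The number that rose was 1 without no-FBS replicate 1 or 2 or FBS replicate 1 and 5 without FBS replicate 3, and 4 with a minimum mean of 5 TPM or protein-coding genes only. TOP2A, the topoisomerase of mitotic chromosomes, measured 2.91, 10.1 and 5.42 TPM without FBS and 38.3, 46 and 20 TPM with FBS and rose (log2 change 2.38, SE 0.44, adjusted p = 0.00496), whereas MKI67, the proliferation marker, had 2.15, 1.16 and 4.75 TPM without FBS and 3.5, 7.0 and 3.19 TPM with FBS and was not called (adjusted p = 0.378). CKS2, a CDK subunit, fell (-1.85).

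Immediate early genes, which respond to signals within minutes, had 5 increases and 4 decreases (1 without no-FBS replicate 1 or FBS replicate 3 and 2 without no-FBS replicate 3 or FBS replicate 1) among 24, and 8 increases under each of 4 other scalings. FOSB, an AP-1 subunit, rose from 7.05 ± 1.23 to 65.5 ± 7.35 TPM (SD, n = 3 per group, log2 change 3.05, SE 0.23, adjusted p = 7.01e-05), EGR2 by 1.90 and IER3 by 1.14. FOS itself was 798 ± 94.2 TPM without and 1009 ± 129 TPM with FBS and not called (adjusted p = 0.0956).

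Transcripts of the respiratory chain split by genome. Of 30 nuclear-encoded subunits 23 fell and 0 rose (median -0.77), a count of 14 without no-FBS replicate 1. ATP5MC3, a c-ring subunit of ATP synthase, measured 652, 581 and 634 TPM without FBS and 146, 189.7 and 167 TPM with FBS (log2 change -1.89, SE 0.13, adjusted p = 4.81e-05). CYC1, cytochrome c1, fell from 238 ± 28.2 to 74.4 ± 10.1 TPM (SD, n = 3 per group, log2 change -1.66, SE 0.17, adjusted p = 0.000262), and COX5A, of cytochrome oxidase, fell too (-1.32). Of 13 mitochondrially encoded genes 9 rose and 1 fell, with a median change of 0.46 that dropped to 0.07 after quantile normalization, where 6 rose. MT-ND1, of complex I, measured 2369, 2492 and 2321 TPM without FBS and 4317, 4929 and 5234 TPM with FBS (log2 change 1.01, SE 0.09, adjusted p = 0.00015), and MT-ATP6, of ATP synthase, rose by 0.82, while MT-ND4L fell (-1.19). All mitochondrially encoded genes together took 6.01 to 6.27% of the TPM without and 7.01 to 8.68% with FBS, and the part of that share in the result was not tested.

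Glycolysis genes fell as well, 12 of 26 in the list of glycolysis and hypoxia, with 1 increase (median -0.99). ENO1, enolase, measured 1125, 1006 and 1199 TPM without FBS and 137, 167 and 173 TPM with FBS (log2 change -2.80, SE 0.13, adjusted p = 1.19e-05). LDHA, which turns pyruvate to lactate, fell from 137 ± 22.3 to 25.2 ± 4.58 TPM (SD, n = 3 per group, log2 change -2.40, SE 0.21, adjusted p = 0.000146). PGAM1, TPI1 and GAPDH, the last often used for normalization, fell as well (-1.8, -1.43 and -1.53). The hypoxia reporters VEGFA and ADM were not called (-0.02 and -1.47). Immune metabolism had 5 decreases and 0 increases among 7. TDO2, which opens tryptophan breakdown, fell from 54.7 ± 14.5 to 2.53 ± 2.26 TPM (log2 change -4.13, SE 0.44, adjusted p = 0.000346), and IL4I1, an amino acid oxidase, from 52.3 ± 11.3 to 2.62 ± 1.61 TPM (log2 change -3.97, SE 0.37, adjusted p = 0.000202). SAT1, which acetylates polyamines, rose from 1488 ± 229 to 4470.0 ± 138 TPM (log2 change 1.60, SE 0.11, adjusted p = 4.81e-05). ALOX5AP, needed for leukotriene synthesis, fell (-2.33) and LTC4S, leukotriene C4 synthase, rose (1.83).

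**Figure D4:**
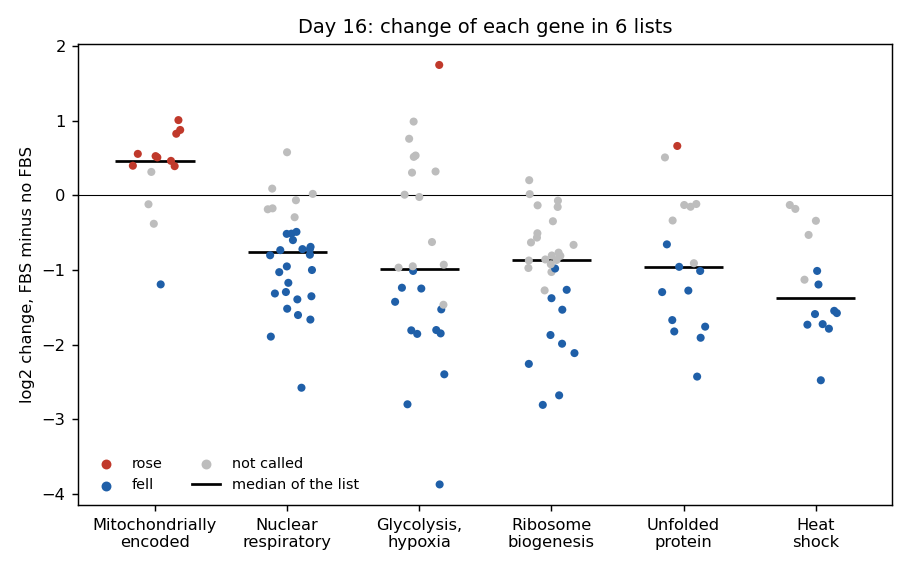
Log2 change at day 16 (FBS minus no FBS) of each tested gene in 6 lists, with red points for genes that rose, blue for genes that fell, grey for genes not called and a bar at the median of the list. Mitochondrially encoded genes lie mostly above 0, with a median of 0.46, and the other 5 lists have medians between -1.37 and -0.77.

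Genes of ribosome assembly and protein folding contributed decreases. Of 30 ribosome biogenesis genes 10 fell and 0 rose (median -0.87), a count of 6 without no-FBS replicate 1 or 3. NOP2, a methyltransferase of ribosomal RNA, measured 19.1, 23.3 and 20.1 TPM without FBS and 2.74, 4.12 and 3.91 TPM with FBS (log2 change -2.26, SE 0.28, adjusted p = 0.00078), and EBNA1BP2, an assembly factor of the large subunit, fell too (-2.11). The E-box CACGTG, the letters that MYC binds, stands on either strand in the 250 bases before the start of 4 of the 25 genes of that list with a promoter in the table, against 6.34% of all promoters there and 14.4, 11.8 and 11.0% of the genes that fell, rose and were not called. Of 47 cytosolic ribosomal proteins 4 rose and 14 fell (9 without no-FBS replicate 1). The increases were 2 without no-FBS replicate 1, 2 or 3 or FBS replicate 3. There were 9 increases and 10 decreases after quantile normalization, and 7 and 9 with protein-coding genes only. Cytosolic ribosomal proteins had a median of -0.15 that turned to 0.05 and to 0.01 under those scalings. Heat shock chaperones had 9 decreases and 0 increases among 14. HSPE1, the mitochondrial chaperonin HSP10, fell from 139.6 ± 9.37 to 26.1 ± 11.2 TPM (SD, n = 3 per group, log2 change -2.48, SE 0.32, adjusted p = 0.000923), and HSPA8 and HSP90AB1 fell too (-1.58 and -1.55). Unfolded protein response genes had 10 decreases and 1 increase among 17. SDF2L1, a chaperone partner in the endoplasmic reticulum, measured 182, 215 and 211 TPM without FBS and 29.7, 41.5 and 40.1 TPM with FBS (log2 change -2.43, SE 0.18, adjusted p = 7.01e-05), and PDIA6 and HSP90B1 fell too (-1.67 and -1.30). XBP1, the transcription factor of that response, was the increase (0.66), a call lost with no filter on low values and any of no-FBS replicate 1 or 2 or FBS replicate 1, 2 or 3 left out.

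The amino acid stress response held the second largest decrease, while its transcription factors ATF4 and DDIT3 (CHOP) rose. CHAC1, which degrades glutathione, measured 39.3, 29.7 and 33.7 TPM without FBS and 0, 0.66 and 0 TPM with FBS (log2 change -4.88, SE 0.35, adjusted p = 4.81e-05). Its promoter is shown since it holds the letters TGATGNAA of an amino acid response element, present on either strand in 3.14% of all promoters in the table and in those of 4 of the 21 genes of the list that have one there. It covers the 250 bases before the start at chr15:40953221-40953470, plus strand of GRCh38.p14, and capitals mark the match, which lies on the opposite strand.
CHAC1: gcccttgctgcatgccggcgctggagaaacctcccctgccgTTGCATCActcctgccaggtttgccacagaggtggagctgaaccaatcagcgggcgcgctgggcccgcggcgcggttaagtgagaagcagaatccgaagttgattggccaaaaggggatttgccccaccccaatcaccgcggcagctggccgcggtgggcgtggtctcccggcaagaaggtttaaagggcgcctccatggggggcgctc
ASNS, asparagine synthetase, carries the same letters and was not called (1.30). ATF4, which switches on genes of the response, measured 109.5, 107 and 98.3 TPM without FBS and 138, 194 and 165 TPM with FBS (log2 change 0.64, SE 0.17, adjusted p = 0.0238), a call lost with any of no-FBS replicate 1, 2 or 3 or FBS replicate 2 or 3 left out. DDIT3, a factor that ATF4 induces, rose (log2 change 0.67, SE 0.21, adjusted p = 0.0473), a call lost under 9 of 18 alternatives. SLC3A2, a chain of amino acid transporters, was the third member that rose (0.87), while SHMT2 and MTHFD2, enzymes of mitochondrial one-carbon metabolism, and the factor ATF5 fell (-1.92, -1.09 and -1.69). In all 6 of 17 fell and 3 rose (1 without no-FBS replicate 2 or 3 or FBS replicate 2 or 3). The sterol regulatory element TCACNCCAC had no match in the same window of any of the 15 sterol synthesis genes with a promoter in the table, against 0.88% of all promoters, which says only that these letters are not in this window.

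Iron and redox genes gave mixed counts. Iron handling had 3 increases and 3 decreases among 17, and NRF2 targets had 3 and 4 among 16. SLC40A1, ferroportin, the exporter of iron, measured 7.02, 2.14 and 4.2 TPM without FBS and 32.6, 42.8 and 42.9 TPM with FBS (log2 change 2.98, SE 0.36, adjusted p = 0.000661). HMOX1, haem oxygenase, rose from 174 ± 24.8 to 409 ± 24.5 TPM (SD, n = 3 per group, log2 change 1.24, SE 0.14, adjusted p = 0.000496), whereas PRDX1 and NQO1, which detoxify peroxide and quinones, fell (-1.31 and -2.16). Lysosome genes had 8 increases and 3 decreases among 32. ACP5, the tartrate-resistant phosphatase of osteoclasts and some macrophages, rose from 47 ± 8.22 to 273 ± 43.8 TPM (log2 change 2.52, SE 0.19, adjusted p = 6.74e-05). It is 1 of 6 osteoclast markers tested. Of these CTSK also rose (0.87), a call lost with each library left out in turn, and MMP9 fell. All 10 listed osteoclast markers together summed to 153 to 175 TPM without and 267 to 366 TPM with FBS.

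Other genes among the 15 largest changes in each direction lie outside these lists. YPEL3, a gene linked to growth arrest, rose from 22.5 ± 9.3 to 391 ± 13.3 TPM (SD, n = 3 per group, log2 change 4.13, SE 0.26, adjusted p = 2.5e-05). GABRE, a GABA receptor subunit, rose by 4.67, SLC16A10, a transporter of aromatic amino acids and thyroid hormone, by 4.02, ADHFE1, a mitochondrial oxidoreductase, by 3.78, and the long noncoding RNA LINC00173 by 4.4. Among decreases, SNCG, gamma-synuclein, fell from 35.3 ± 4.7 to 0.297 ± 0.514 TPM (log2 change -4.87, SE 0.37, adjusted p = 6.74e-05) and SLAMF7, a receptor of activated leukocytes, from 30.8 ± 5.29 to 0.363 ± 0.129 TPM (log2 change -4.54, SE 0.32, adjusted p = 4.55e-05). LGALS12, a galectin, ASB2, a ubiquitin ligase adaptor, SLC2A6, a sugar transporter, and MYEOV also fell (-4.45, -4.4, -4.36 and -4.14). The levels of 4 others are uncertain: TNFSF12-TNFSF13 (5.69) and NME1-NME2 (-4.4) are readthrough transcripts that share exons with their parent genes, and RN7SL200P and SNRPD2P1 (4.35 and 3.79) are copies of other genes. Protein-coding genes made up 92.5% of the genes that fell, 71.7% of those that rose and 77.4% of those not called. Genes without a match in RefSeq do not count as protein-coding here.

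The same comparison was made at days 19 and 23, whose 12 libraries are separate from those of day 16, in a fit of all 18. Of the genes that rose at day 16, 1347 were tested in it; 1261 were higher with FBS at day 19 and 983 at day 23, and 901 and 417 passed the test there. Of 1599 that fell, 1505 were lower at day 19 and 874 at day 23, and 1074 and 292 passed, while 203 were called higher at day 23. Across 13290 genes, which are not independent, the change at day 16 correlated with that at day 19 at r = 0.683 (Spearman 0.657) and with that at day 23 at r = 0.204 (0.193). The difference between days was tested itself. The effect at day 19 differed from that at day 16 in 223 genes (1.68%) and the effect at day 23 in 2151 (16.2%). The first count was 128, 134 and 98 without day 16 no-FBS replicate 1, 2 or 3, 144 without day 16 FBS replicate 2 and 121 without day 19 no-FBS replicate 2. Genes were chosen here by their values at day 16, which favours smaller values at the later days.

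**Figure D5:**
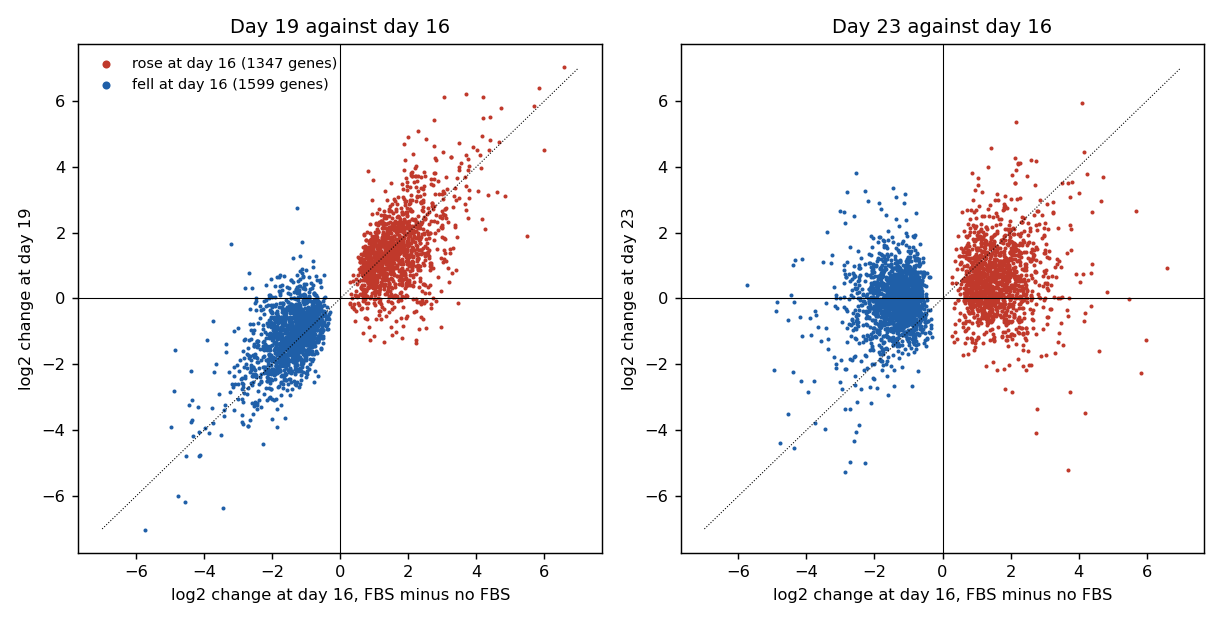
Log2 change with FBS at day 19 (left) and day 23 (right) on the y axes against that at day 16 on the x axes, for the 1347 genes that rose (red) and 1599 that fell (blue) at day 16, which fixes their side of the x axis; the dotted line marks equal change. At day 19 most points keep their side of 0 and at day 23 those that fell lie around it, with a median of -0.09.

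Sterol synthesis had a median change of -2.06 at day 19 and -1.74 at day 23, and 3 of its 20 genes differed between days 16 and 23. ABCA1 had effects of 2.47 at day 19 and 1.85 at day 23 and ABCG1 of 2.45 and 3.09, and for neither gene did the test call a difference from day 16. NR1H3 had 1.86 at day 19 and -1.42 at day 23, and the latter differed from day 16 (difference -3.78, adjusted p = 0.000176). ID3 had 4.37 and 5.94 (day 23 minus day 16 1.84, adjusted p = 0.00736). SPP1 had -6.18 at day 19 and -0.66 at day 23, and the difference of the latter from day 16 was 3.89 (adjusted p = 1.13e-05). IL1B had -3.09 and -0.12 (difference 4.24, adjusted p = 2.39e-07). The nuclear respiratory subunits, at -0.77 on day 16, had medians of -0.96 and -0.27, and 13 of 30 differed at day 23. Glycolysis and hypoxia genes had -0.55 and -0.09, with 13 of 26 that differed, and heat shock chaperones -0.94 and -0.16, with 10 of 14. Unfolded protein response genes had medians of opposite sign, -0.23 and 0.78 and 12 of 17 that differed at day 23. Other lists moved further from 0. Tissue-resident macrophage genes, at 0.72 on day 16, had medians of 0.8 and 2.14, and 17 of 23 differed at day 23. Cytosolic ribosomal proteins, at -0.15 on day 16, had -0.49 and -0.94. Of these 47 genes 40 differed at day 23, and 44 were called lower with FBS there.

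Immediate early genes were 3 of the 5 genes whose effect at day 19 exceeded that at day 16 by the most. NR4A1, an orphan nuclear receptor, had -1.26 at day 16 and 2.73 at day 19 (difference 4.0, adjusted p = 0.0162), EGR3 0.27 and 3.65 (difference 3.38) and EGR1 0.82 and 3.89 (difference 3.07). SNCG and IMMP1L also differed upward (3.29 and 3.45), and PVALB, APOBEC3B and PIMREG downward (-3.81, -3.64 and -3.38). At day 23 the effect on F13A1 was 4.56 and that on LYVE1, which had fallen at day 16, was 3.36 (differences 3.14 and 4.83). NPY, a neuropeptide, had -2.53 at day 16 and 3.81 at day 23 (difference 6.34, adjusted p = 0.000189), and ADGRG1, an adhesion receptor, -3.01 and 2.66 (difference 5.67). In the other direction CD52, a small glycoprotein of leukocytes, had 1.11 and -5.16 (difference -6.27, adjusted p = 0.0459). Of the macrophage markers 9 of 17 differed at day 23, with effects of 0.33 on CD14, 0.99 on CD68 and 2.67 on MRC1.

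Groups that were higher with FBS at day 16 were in part no longer so at day 23. Of HLA class II genes 4 of 10 differed, and the effect on HLA-DRA went from 2.30 at day 16 and 1.81 at day 19 to -0.91 (difference from day 16 -3.21, adjusted p = 0.00778). CIITA had 3.28, 0.77 and 0.04, and both later values differed from the first (adjusted p = 0.0365 and 0.000926). MT2A had 1.49, 1.79 and -1.94 (day 23 minus day 16 -3.42, adjusted p = 0.0126). CDKN1C went from 4.05 to 0.51 and TOP2A from 2.38 to -1.58 (differences -3.55 and -3.95). Of the overlapping pair, whose reads cannot be told apart, SELENOP had 2.13 at day 16 and 3.50 at day 23, and CCDC152 had 6.59 and 0.94 (differences 1.37 and -5.64). Among genes lower with FBS at day 16, MYC had -3.17 at day 19 and 0.94 at day 23, CHAC1 -2.80 and -0.39, and ENO1 -2.34 and -0.91, and the value at day 23 differed from that at day 16 for each (differences 3.39, 4.49 and 1.89). MARCO had -6.00 and -4.4 and FADS1 -2.70 and -2.14, and for neither was a difference from day 16 called (adjusted p = 0.637 and 0.215 at day 23).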

How the data were processed

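The authors deposited 1 table of TPM with 32 bulk RNA libraries, all matched to samples by title, with 0 columns unmatched. Per the submitters' processing notes, tools for all assays included HTSeq 0.11.1, DESeq2, HISAT2 and Trim Galore 0.4.4, with hg38 as build; the maker of the TPM and the strand of counting, not given in the sources used here, are unknown. TPM keeps no read depth, so no count model was used.

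Genes that averaged 1 TPM or more across the 6 libraries were tested as log2(TPM + 1) with limma 3.58.1 in R 4.3.3 (moderated with a mean trend, Benjamini-Hochberg adjustment over all tested genes, threshold 0.05). The difference between days came from interaction terms in a fit of 18 libraries. The script was tested on simulated data with the gene means and spread of the 6 libraries. It recovered 10% of 100 genes changed by 1 log2 unit and 43% of 100 changed by 2. Gene positions and promoters are those of RefSeq (GRCh38.p14), in which 36226 genes were matched.

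The comparison, the 45 pathway lists and 15 cell type lists were chosen with earlier results of these data known. Some genes stand in several lists, as STAB1 does among scavenger receptors, tissue-resident macrophage genes and efferocytosis genes. Named genes were up to 15 of the largest changes in each direction, up to 5 members of each list by lowest p, up to 5 of the largest differences between days in each direction, and a fixed set; some of these are not reported here. Genes named beyond that rule, chosen after their values were seen, were APOE, APOC1, PLIN2, CD36, MSR1, MT1H, SLC30A1, SMAD6, SMAD7, ID2, IL6, TNF, CXCL1, CXCL2, CXCL3, CXCL8, IL18, CD74, LYVE1, C1QA, MERTK, AXL, SRF, FOS, VEGFA, ADM, XBP1, ASNS, ATF4 and DDIT3. Alternatives changed the pseudocount, filter, scaling, spread, weights and block, and left out each library.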

Additional observations from a re-analysis of the deposited data

Results flagged for a closer look

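The effect of FBS at a later day differed from that at day 16 for many of the genes named, by the interaction term of limma in the fit of 18 libraries at an adjusted p under 0.05. Values in parentheses are the log2 change with FBS at the later day minus that at day 16, so that a gene lower with FBS at day 16 and equal in both groups later has a positive value. Over all genes tested such a difference was called in 1.68% at day 19 and 16.2% at day 23, and most of these genes were named for their values at day 16. For genes listed at 0 in a group, such as MT1G and G0S2, the value depends on the pseudocount.

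Among lipid and sterol genes the difference at day 19 was above 0 for APOE (2.18) and TREM2 (1.04) and below 0 for CHI3L1 (-2.91). For lipid and sterol genes at day 23 it was above 0 for PMVK (1.66), PLIN3 (1.49), G0S2 (2.79), CD36 (1.66), MSR1 (1.68), SPP1 (3.89), TREM2 (3.53) and CTSB (2.09) and below 0 for NR1H3 (-3.78) and APOC1 (-2.83).

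Among inflammatory mediators and chemokines the difference at day 19 was above 0 for IL1A (2.64) and TNF (1.43). For inflammatory mediators and chemokines at day 23 it was above 0 for IL1A (3.32), IL1B (4.24), OSM (2.52), TNF (1.07), CXCL1 (0.96), CCL2 (3.51), IFI6 (1.16) and MYD88 (1.12) and below 0 for SOD2 (-1.07), TNFAIP2 (-2.74) and CCL24 (-3.40).

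Among surface receptor and antigen presentation genes the difference at day 19 was above 0 for ITGB2 (0.65) and below 0 for CIITA (-2.51). For surface receptor and antigen presentation genes at day 23 it was above 0 for CX3CR1 (1.65), GPR183 (1.57), GPR84 (3.63), FCGR1A (1.69), CSF1R (0.88), ITGAM (1.96), ITGAX (1.26), ITGB2 (0.40), MERTK (3.40), AXL (2.33), CD1C (3.53) and ADGRG1 (5.67) and below 0 for HLA-DRA (-3.21), HLA-DRB1 (-2.86), HLA-DMB (-2.14), CIITA (-3.25), CXCR4 (-2.75) and CD52 (-6.27).

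Among macrophage and monocyte genes the difference at day 19 was above 0 for CD14 (0.84) and below 0 for S100A9 (-0.72). For macrophage and monocyte genes at day 23 it was above 0 for CD14 (1.08), CD68 (2.03), MRC1 (1.95), C1QC (2.39), F13A1 (3.14), IGF1 (1.87), LYVE1 (4.83), RNASE1 (2.12), SELENOP (1.37) and GAS6 (1.14) and below 0 for STAB1 (-0.72), S100A9 (-0.97) and CCDC152 (-5.64).

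Among genes of metal, hormone and BMP or TGF-beta responses the difference at day 23 was above 0 for SLC30A1 (1.52), ID1 (3.20), ID2 (1.90), ID3 (1.84), TGFBI (1.61) and TGFBR1 (1.37) and below 0 for MT1E (-3.17), MT1G (-5.52), MT2A (-3.42) and TSC22D3 (-1.03).

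Among immediate early and growth genes the difference at day 19 was above 0 for NR4A1 (4.0), EGR1 (3.07), EGR2 (2.29), EGR3 (3.38), FOSB (3.06) and IER3 (1.15) and below 0 for PIMREG (-3.38). For immediate early and growth genes at day 23 it was above 0 for EGR1 (1.59), FOS (0.97), MYC (3.39), CCND1 (2.79) and GINS2 (2.66) and below 0 for EGR2 (-1.32), FOSB (-4.78), CDKN1C (-3.55), MKI67 (-2.50), TOP2A (-3.95) and PIMREG (-2.92).

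Among energy metabolism genes the difference at day 19 was below 0 for MT-ND1 (-0.56) and MT-ND4L (-1.02). For energy metabolism genes at day 23 it was above 0 for ENO1 (1.89), GAPDH (1.92), LDHA (2.21), PGAM1 (1.64), TPI1 (1.17), ADM (2.95), ATP5MC3 (1.36), COX5A (1.36), CYC1 (1.72) and MT-ND4L (1.95).

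Among protein production and stress genes the difference at day 19 was above 0 for HSP90B1 (1.07) and SDF2L1 (1.67). For protein production and stress genes at day 23 it was above 0 for EBNA1BP2 (1.83), NOP2 (1.88), HSP90AB1 (1.04), HSPA8 (2.19), HSPE1 (1.99), HSP90B1 (2.30), PDIA6 (2.12), SDF2L1 (3.13), XBP1 (0.86), CHAC1 (4.49) and SHMT2 (1.66) and below 0 for ATF4 (-1.14).

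Among actin, matrix and eicosanoid genes the difference at day 19 was above 0 for LTC4S (1.65) and below 0 for CTSK (-2.14). For actin, matrix and eicosanoid genes at day 23 it was above 0 for ACTB (1.25), TPM4 (1.65), FSCN1 (1.61), PLAU (1.21), PLAUR (2.02) and ALOX5AP (2.44) and below 0 for TIMP1 (-0.97).

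Among remaining genes the difference at day 19 was above 0 for EGFL7 (1.95), IMMP1L (3.45) and SNCG (3.29) and below 0 for APOBEC3B (-3.64) and PVALB (-3.81). For remaining genes at day 23 it was above 0 for ASB2 (2.18), EGFL7 (2.71), IMMP1L (1.87), LGALS12 (4.55), MYEOV (2.99), NME1-NME2 (5.43), NPY (6.34), SNCG (4.75) and TDO2 (5.32) and below 0 for APOBEC3B (-2.99), GABRE (-1.69), LINC00173 (-3.35), PVALB (-3.21), RN7SL200P (-3.59), TNFSF12-TNFSF13 (-3.04) and YPEL3 (-3.39).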

How the results depend on the processing

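The count of genes called at day 16 (2964) ranged from 2334 with no filter on low values to 3224 with the spread of 18 libraries, over pseudocounts of 0.1 and 5, a minimum mean of 5 TPM, median-ratio scaling, quantile normalization, array weights and 3 alternatives chosen after seeing the data: leaving out the 3 clone-named genes, protein-coding genes only and robust limma. Leaving out 1 library gave 1800 to 2526 calls, with 913 to 1211 that rose and 887 to 1461 that fell. The lowest counts came without no-FBS replicate 3. Of the 2964 calls with all 6 libraries, 1756 were kept there, among its 1800 calls. The count of genes whose effect at day 19 differed from day 16 was 98 to 216 without 1 library, and that for day 23 was 1625 to 2041. With the replicate number as a block (replicate block) the counts were 2731 (1258 rose, 1473 fell), 165 and 2079. Deviations of same-numbered libraries from their group means correlated at 0.009, 0.007 and 0.017 over all genes, and those of other pairs at -0.015 to 0.007. No-FBS replicate 2 correlated equally with FBS replicates 1 and 2. Values this small cannot show whether same-numbered libraries were made together, and the labels do not say. Under that block Immediate early genes had 2 decreases and Cytosolic ribosomal proteins 2 increases. Differences between days of single genes were not recomputed without each library. No sign turned among called genes that are named, and 172 of 206 kept their side of the threshold in every alternative. Most of them were chosen for large changes or low p in these data, which favours such stability. Scalings moved some small counts: with protein-coding genes only, Iron handling had 6 increases, Efferocytosis 5, Lipid droplets and lipid uptake 4, and LDL uptake and SREBP control and Type I interferon response 3 each. SRF targets and actin cytoskeleton had 7 decreases with the spread of 18 libraries. No limit from depth could be computed without read totals; calls were scarcest at 1 to 5 TPM.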

Other observations

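Genes listed at 0 in the 3 libraries without FBS numbered 310, of which 56 were called at day 16, and 154 genes were listed at 0 in the 3 libraries with FBS, of which 39 were called. Long noncoding RNAs made up 5.0% of the genes that rose, 1.2% of those that fell and 3.3% of those not called. The median GC content of the printed promoter window was 64.4% in genes that rose, 64.8% in genes that fell and 64.0% in genes not called, over 823, 1265 and 6977 genes with a promoter in the table. Of the genes not called, 78 had a difference of at least 2 log2 units and 2319 had libraries of the 2 groups that did not overlap.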
